A study of Mus musculus with 5 samples.

Results

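The comparison described here is forskolin against the untreated library in mouse epidermis, across 13275 of the 21667 genes in the table. A gene was included if it reached 1 CPM, a count scaled to library size, in both forskolin libraries or in the control, and its values were rescaled by median-of-ratios size factors. Of the 13275 genes, 9115 reached 1 CPM in all 3 libraries, 3484 entered through the forskolin pair and 676 through the control. The study asks what signalling through G protein-coupled receptors, cAMP and Creb does in the activation of hair follicle stem cells. Wildtype C57BL/6 male mice at postnatal day 49 had their backs shaved, and compounds were applied to the skin in DMSO and PLO lotion. There were 2 libraries with forskolin at 10 µM and 1 control library labelled untreated, and 2 libraries with cAMP at 1.325 mM entered the same fit. Both compounds were given in 3 treatments over 5 days. RNA came from total epidermis freed by overnight trypsin, so every library holds all cell types left in that suspension. Whether the lotion was put on the control skin is not stated, nor whether each library is 1 animal or a pool.

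Forskolin is a plant diterpene that binds adenylyl cyclase and makes the enzyme produce cAMP without a receptor. cAMP frees the catalytic subunits of protein kinase A, which phosphorylate CREB, a transcription factor that sits on promoters at the cAMP response element and recruits the CRTC and CBP/p300 coactivators. Its best-known targets are early response genes, the clock gene Per1 and genes that dampen the signal again. In skin the same pathway is known for the response of pigment cells to melanocortin and for effects on keratinocyte growth. The epidermis itself renews from a basal layer, through a spinous and a granular layer, to the dead cornified layer, and carries hair follicles and sebaceous glands.

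The control differed in composition from both forskolin libraries, and this bears on every comparison with it. Mitochondrial transcripts made up 69.3% of the control and 50.7% and 45.6% of the forskolin libraries, while nuclear genes other than pseudogenes and rRNA made up 7.86%, 31.3% and 34.7%. The size factors were 0.325 for the control and 1.41 and 1.31 for forskolin 1 and 2. The table holds a small offset in place of 0. If that offset stands for 0.0001 read, the 3 libraries held 49400000, 48500000 and 50800000 reads, and 3 reads corresponded to 0.187 rescaled CPM in the control and 0.0437 and 0.0451 with forskolin. Of the genes whose level in the treated libraries predicted at least 20 reads, 5.07% were listed under 1 read in the control, against 0.0381% to 1.24% in the 4 treated libraries. Genes that every cell uses were among them. Med16, a Mediator subunit picked as an example after its values were seen, was listed at 0 in the control and at 7.8 and 12.6 rescaled CPM with forskolin. A value of 0 in the control is therefore given below as listed, with no fold change, and its log2 difference depends on the pseudocount of 1. Forskolin 2 held 64280 CPM of ribosomal RNA against 6256 in forskolin 1 and 7006 in the control. The labelled tissue matched its markers, with Krt14, a keratin of basal cells, at 833 rescaled CPM in the control and at 1414 and 1335 with forskolin.

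limma called 3387 genes (25.5%) at an adjusted p under 0.05, of which 2189 were higher with forskolin (16.5% of those tested) and 1198 lower (9.02%). Both forskolin libraries lay on the same side of the control for every called gene. Much of this followed the entry rule: 1589 of the 3484 genes that entered through forskolin were called higher (45.6%) and 601 of the 676 that entered through the control were called lower (88.9%). Among the 9115 genes at 1 CPM or more in all 3 libraries, 600 were higher (6.58%) and 596 lower (6.54%). These percentages are the background for the counts on gene lists. Entry through 1 group favours a difference in its direction, so most lists are also given for its members at 1 CPM or more in all 3 libraries, called shared members. Of the 2189 higher calls, 862 (39.4%) concerned genes listed at 0 in the control. The median gene differed by 0.14 on the log2(rescaled CPM + 1) scale used for every difference here, and by 1.72 with the CPM as deposited, where 9045 genes were higher (68.1%) and 290 lower (2.18%). All 2189 higher calls were also higher as deposited, against 290 of the 1198 lower calls, and 360 of these 1198 turned positive. Lower values below are thus lower relative to the typical gene. The split also moved with quantile normalization (1165 higher, 1160 lower), a pseudocount of 5 (1438 and 1298), no filter (762 and 1198) and a minimum of 10 CPM (1101 and 343). With 1 control library the spread came from the treated pairs. When forskolin 1 or forskolin 2 was left out, no gene passed, with 4023 and 3564 at an unadjusted p under 0.05.

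**Figure D1:**
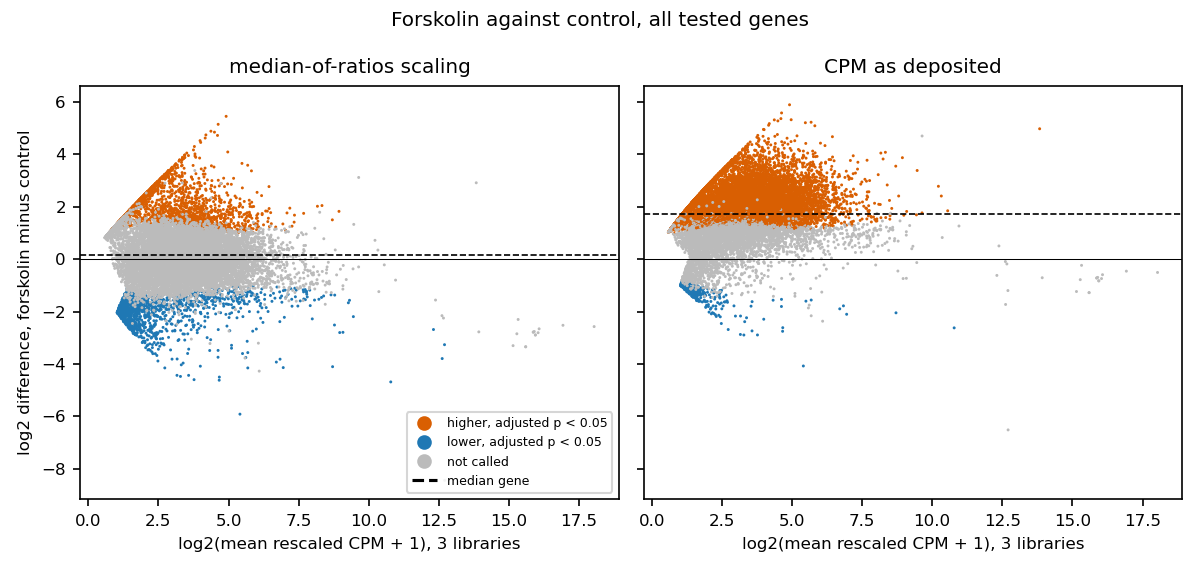
Each point is 1 of 13275 genes, with the mean level over the control and forskolin libraries on the horizontal axis and the log2 difference, forskolin minus control, on the vertical axis. The dashed median lies at 0.14 after median-of-ratios scaling (left) and at 1.72 for the CPM as deposited (right); orange and blue points were called higher and lower.

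The difference also followed base composition. With genes ranked by GC content and cut into 4 equal bins, lowest GC first, the median log2 difference was -0.28, 0.04, 0.26 and 0.59, with 280, 439, 606 and 846 genes called higher and 498, 294, 237 and 157 lower. After GC and length were removed from each library, an alternative added after the data were seen, 2574 genes were higher and 1316 lower. The part of the mitochondrial share and of the listed 0 values in single genes was not tested. In a whole tissue, fewer cells of a type and less RNA per cell cannot be told apart either.

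Of the 12 largest rises among genes with at least 3 reads in the control, 10 entered through forskolin, where they are high, and their rank follows in part from that. Celsr2 and Sprr2a2 were at 1 CPM or more in all 3 libraries. Pcx, the gene of pyruvate carboxylase (chr19:4510472-4621752, GRCm38), stood at 0.249 rescaled CPM in the control and at 20.8 and 49.1 with forskolin, a log2 difference of 4.73 ± 0.49 (SE; limma adjusted p = 0.00243). Forskolin 2 was the higher of the pair, and both lay far above the control. Zfp598, a ubiquitin ligase that senses collided ribosomes, was at 1.68 in the control and at 44.4 and 45.1, so the forskolin pair nearly coincided. Ksr1, a scaffold of the Ras to ERK cascade, went from 0.311 to 16.8 and 21.8. Celsr2, an atypical cadherin of planar cell polarity, was at 3.92 against 46.3 and 80.7, with forskolin 2 the higher. Sprr2a2, a small proline-rich protein of the cornified envelope, was at 5.16 against 71.8 and 74.2. Its near-identical neighbours can share reads with it, and the same holds for Tuba1c, an alpha-tubulin gene, at 0.31 against 26.9 and 12.6. The remaining places went to Dos, Srcin1, Fbxo42, Sfi1, Gtf2f1 and Fosb, the last of these described with the early response genes.

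A second set of 6 rises had under 3 reads in the control, and all 6 entered through forskolin. Lcn2, which encodes an antimicrobial protein that binds bacterial iron carriers (chr2:32384633-32387797), was listed at 0 in the control and at 26.5 and 44.9 with forskolin (log2 difference 5.15 ± 0.41, adjusted p = 0.00229). Abca7, a lipid transporter, was listed at 0 against 23.3 and 28.6, and Epha2, an ephrin receptor of keratinocytes, at 0 against 25.4 and 19.1. Erdr1 was listed at 0 against 21.9 and 37.2. Pla2g4e, a cytosolic phospholipase A2, was at 0.0623, or 1 read, against 22 and 28.9. Ptpn23, an endosomal phosphatase-like protein, also had 1 read in the control, against 19.2 and 26 rescaled CPM with forskolin. In all 6 the forskolin libraries were close to each other compared with their distance from the control, which the choice of called genes by their lower forskolin value favours.

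The largest falls were led by late cornified envelope genes, whose proteins are crosslinked into the dead cell's shell. Of the 12 falls, 5 (Lce1m, Lce1a1, Lce1a2, Ebf1 and Serpina12) entered through the control, where they are high. Lce1m (chr3:93017810-93019060) stood at 122 rescaled CPM in the control and at 1.71 and 0.541 with forskolin, a log2 difference of -5.91 ± 0.61 (limma adjusted p = 0.00243). Lce1a1 was at 36.8 against 0.286 and 0.897, and Lce1a2 at 31.7 against 0.968 and 0.163. These paralogs are similar in sequence, and reads could be split between them. Lor, the gene of loricrin, the main protein of that shell, was at 85.9 against 7.35 and 7.15, and Serpinb7, a keratinocyte protease inhibitor, at 82.3 against 14.6 and 3.68. Other falls lay outside the cornified layer. Ebf1, a transcription factor of B cells and of mesenchymal cells, was at 25.4 against 0.0438 and 1.49. Dcn, the proteoglycan decorin of dermal fibroblasts, was at 50.1 against 3.03 and 4.17, and Sparc, another matrix gene, at 122 against 9.31 and 18.1. Skint5, of a family needed for epidermal gamma-delta T cells, was at 63.1 against 5.53 and 2.52. Serpina12, Sema3d and Zfhx3 filled the other places, at 26.7, 61.6 and 29.1 in the control and at most 1.01, 6.17 and 2.78 with forskolin. As deposited, the log2 differences of these 12 genes kept their sign, from -4.08 for Lce1m to -1.12 for Sparc, and Lor, Serpinb7 and Sparc were no longer called.

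**Figure D2:**
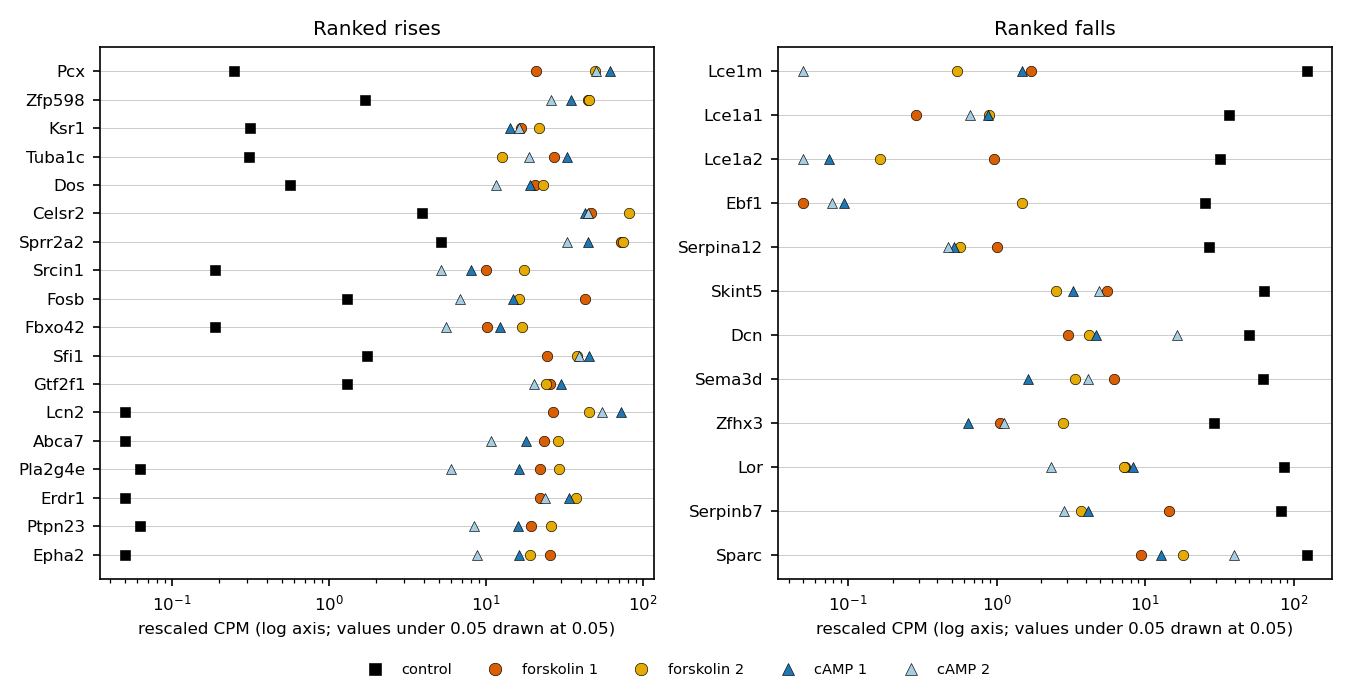
Rescaled CPM of the ranked rises (left) and falls (right) in each library, on a log axis with values under 0.05 drawn at 0.05. For every gene shown both forskolin circles lie on the same side of the control square, as the ranking required. In the control Lcn2, Abca7, Erdr1 and Epha2 sit at the plotting floor.

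Calls went both ways among the components that make cAMP. Of 29 genes for Gs-coupled receptors, G proteins and adenylyl cyclases, 18 were tested, 3 rose and 3 fell, with a median of 0.14, equal to that of all genes. Of all tested genes 16.5% rose and 9.02% fell. Of the 13 shared members none rose and 3 fell, against 6.58% and 6.54% of all shared genes. The 3 rises entered through forskolin. Among receptors, Ptger4, a prostaglandin E2 receptor, rose from 1.06 to 8.37 and 7.18 (log2 difference 2.09 ± 0.62, adjusted p = 0.0381). Calcrl, the receptor of CGRP and adrenomedullin, fell from 10.5 to 0.787 and 1.31 (log2 difference -2.5 ± 0.43, adjusted p = 0.00562), and Adora2b, an adenosine receptor, from 10.6 to 2.22 and 2.0. As deposited, neither fall passed, at log2 differences of -0.88 and -0.2. Mc1r, the melanocortin receptor of pigment cells, was not tested, at 1.0 in the control and 0.0146 and 0.908 with forskolin. Among the cyclases, Adcy3 was listed at 0 in the control and at 5.71 and 7.55, while Adcy6, Adcy7 and Adcy9 were not called. Gnal, a stimulatory G protein alpha subunit, was listed at 0 against 4.44 and 2.45. Gnas, the main such subunit, was not called, with 37.1 in forskolin 1 below and 118 in forskolin 2 above the 41.6 of the control.

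Few genes of protein kinase A, its anchors and inhibitors, and Epac, another cAMP sensor, were called. Of 20 genes 19 were tested, 1 rose and 1 fell, with a median of 0.35, and none of the 16 shared members was called. Prkacb, a catalytic subunit, was at 82.3 in the control and 88.2 and 53.6 with forskolin, on either side of it. Prkar1a, a regulatory subunit, was at 51.4 against 81.4 and 61.4 (adjusted p = 0.346). Prkar2b, another regulatory subunit, rose from 0.125, or 2 reads, to 1.43 and 2.55 (limma adjusted p = 0.0467). Akap12, an anchor, fell from 4.42 to 1.28 and 0.691 (adjusted p = 0.0228). Prkar2b lost its call with quantile normalization or a pseudocount of 5, and Akap12 with a pseudocount of 0.1 or as deposited. Of 13 phosphodiesterase genes, which break cAMP down, 8 were tested, 1 rose through forskolin and 1 fell through the control, and none of the 4 shared members was called. Pde7b fell from 4.86 to 0.0581 and 0.151 (log2 difference -2.41 ± 0.31), and Pde1b was listed at 0 in the control against 2.38 and 2.68. Pde4b, a cAMP-induced phosphodiesterase, was at 5.29 against 13.1 and 16.6 and just missed the threshold (adjusted p = 0.0537).

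Among the CREB factors, Creb1 itself rose. It stood at 4.86 rescaled CPM in the control and at 19.7 and 14.5 with forskolin, a log2 difference of 1.61 ± 0.39 (adjusted p = 0.0205). It was not called when no filter was applied. Crem, whose short isoform ICER represses the same sites, was at 6.53 in the control and at 9.79 and 2.51 with forskolin, so the pair lay on either side of the control (log2 difference -0.29, adjusted p = 0.773). The other 9 of the 11 tested family members and coactivators, Crtc1 to Crtc3, Crebbp and Ep300 among them, were not called.

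Of 35 known CREB and cAMP targets 29 were tested, 9 rose and 2 fell, with a median of 0.74. Of the 21 shared members 3 rose (Per1, Egr1 and Cebpb) and 1 fell, while 6 rises and 1 fall entered through the group where they are high. The rises were led by Per1, a repressor of the circadian clock (chr11:69095217-69109960), at 6.79 in the control and 77 and 82.5 with forskolin, a mean of 79.7 ± 3.89 (SD, n = 2) and 11.7-fold the control level (log2 difference 3.37 ± 0.33, adjusted p = 0.00243). The forskolin values of Per1 differed little from each other. The NR4A orphan nuclear receptors, which are induced within an hour of a cAMP signal, were uneven between the forskolin libraries. Nr4a3 had 1 read in the control, or 0.0623, against 30.4 in forskolin 1 and 8.45 in forskolin 2 (adjusted p = 0.00506). Nr4a2 likewise had 0.0623 against 11.5 and 2.24 (adjusted p = 0.0257, not called with quantile normalization), and Nr4a1 had 4.98 against 36.6 and 10.9, which did not pass (adjusted p = 0.0696). In all 3 receptors forskolin 1 was the higher library, and both lay above the control. Dusp4, a phosphatase that switches off ERK, and Irs2, an adaptor of insulin signalling, were listed at 0 in the control, against 2.97 and 7.0 for Dusp4 and 4.82 and 9.06 for Irs2. Cebpb, a transcription factor of differentiation and lipid genes, was at 6.38 against 21.6 and 104 with forskolin 2 by far the higher, and lost its call with robust empirical Bayes. The falls were Ccnd1, which encodes cyclin D1, from 54.8 to 22.5 and 15.3, and Ppargc1a, a coactivator of mitochondrial genes, from 3.92 to 0.525 and 1.29. As deposited the Ccnd1 difference turned positive, at 0.48, and Ppargc1a was not called there or after GC and length correction. Areg, an EGF receptor ligand, was not tested, listed at 0 in the control and at 3.02 and 0.616 with forskolin.

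The promoters of the targets that rose are shown because CREB binds the element TGACGTCA, or the shorter TGACG, which reads CGTCA on the other strand. RefSeq windows on GRCm38.p6, of 250 bases before to 50 after each gene's start, were searched on both strands, and a short site inside a full element was counted with it. The full element was in 1.79% of all 32851 windows, and a short or full one in 20.8%. Of the 9 targets that rose 6 had a window, 5 of these held a short site and none the full element. Over all 19 tested targets with a window, risen or not, 14 held a short or full site (73.7%) and 3 the full element. Counted the same way, per gene over any of its windows, 35.5% of 9236 tested genes held a short or full site and 3.5% the full element. The 19 were listed as known CREB or cAMP targets, so their larger share is no result of this comparison. Of the 5 risen targets with a short site, the 4 with the smallest adjusted p are printed, Per1 with both of its windows, 5′ to 3′ on the gene's strand, with the short sites in capitals.
Per1, chr11:69098699-69098998 (+): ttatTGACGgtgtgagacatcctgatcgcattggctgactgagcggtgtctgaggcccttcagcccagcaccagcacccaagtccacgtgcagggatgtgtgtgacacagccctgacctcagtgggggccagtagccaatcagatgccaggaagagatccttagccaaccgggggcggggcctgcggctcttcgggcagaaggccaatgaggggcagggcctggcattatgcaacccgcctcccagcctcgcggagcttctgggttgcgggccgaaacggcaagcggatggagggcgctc
Per1, chr11:69099902-69100201 (+): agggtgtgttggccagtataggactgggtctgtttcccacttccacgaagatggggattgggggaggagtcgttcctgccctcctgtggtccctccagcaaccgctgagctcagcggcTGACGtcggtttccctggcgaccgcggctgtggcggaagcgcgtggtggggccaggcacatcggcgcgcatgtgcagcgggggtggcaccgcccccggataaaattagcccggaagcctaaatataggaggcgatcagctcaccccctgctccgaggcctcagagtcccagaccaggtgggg
Nr4a3, chr4:48045055-48045354 (+): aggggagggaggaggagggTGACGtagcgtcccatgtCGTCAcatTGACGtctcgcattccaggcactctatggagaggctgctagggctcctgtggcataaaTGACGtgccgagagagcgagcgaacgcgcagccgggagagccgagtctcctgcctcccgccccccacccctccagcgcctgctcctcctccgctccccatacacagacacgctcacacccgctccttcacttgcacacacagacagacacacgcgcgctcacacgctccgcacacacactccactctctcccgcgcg
Fosb, chr7:19309996-19310295 (-): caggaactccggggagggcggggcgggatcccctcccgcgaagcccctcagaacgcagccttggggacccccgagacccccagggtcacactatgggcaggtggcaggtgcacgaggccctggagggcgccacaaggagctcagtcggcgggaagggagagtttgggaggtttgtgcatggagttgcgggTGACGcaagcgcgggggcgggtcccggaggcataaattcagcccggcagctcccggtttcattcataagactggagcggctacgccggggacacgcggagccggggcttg
Nr4a2, chr2:57123954-57124253 (-): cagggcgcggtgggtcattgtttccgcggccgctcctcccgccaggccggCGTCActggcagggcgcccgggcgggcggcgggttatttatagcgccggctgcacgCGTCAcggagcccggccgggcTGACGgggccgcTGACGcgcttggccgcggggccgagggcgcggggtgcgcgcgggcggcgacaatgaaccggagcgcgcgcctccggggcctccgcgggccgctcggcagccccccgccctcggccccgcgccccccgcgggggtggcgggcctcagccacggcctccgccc
The Nr4a3 and Nr4a2 windows held 4 short sites each, and those of Per1 and Fosb 1 each. Over tested genes with a window, a short or full site was in 34.7% of 1549 called higher, 28.3% of 618 called lower and 36.3% of 7074 not called. A match is a description of these letters and not evidence of binding.

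Early response factors also rose, on a list that shares Fos, Fosb, Junb, Egr1, Ier2 and Btg2 with the CREB targets. All 23 Fos, Jun, Egr and related genes were tested, 10 rose and none fell, with a median of 1.25. Of the 17 shared members 5 rose, and the other 5 rises, Fosb, Fosl1 and Ier2 among them, entered through forskolin. Fosb, a partner of Jun in AP-1, went from 1.31 to 42.5 and 16.2 (log2 difference 3.57 ± 0.62, adjusted p = 0.00583). Fosl2, a related factor, went from 14.2 to 76.6 and 66.5, with the forskolin libraries close (log2 difference 2.25 ± 0.33, adjusted p = 0.00314). Fosl1 was listed at 0 in the control against 8.98 and 3.05. The zinc finger factors Egr2 and Egr3 stood at 10.1 and 5.6 in the control, at 34.9 and 17.7 in forskolin 1 and at 31 and 25 in forskolin 2. Egr1 went from 13.6 to 45.5 and 26.7 (adjusted p = 0.0381) and was no longer called with quantile normalization or GC and length correction. Ier2 went from 2.24 to 14.8 and 16.2. Other well-known members were not called. Fos was at 5.48 against 10.8 and 6.68 (adjusted p = 0.368), Jun at 19.4 against 15.9 and 19.7, and Junb at 9.4 against 21.8 and 26.5 (adjusted p = 0.0641). After GC and length correction 8 of the 23 rose, with a median of 0.7.

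**Figure D3:**
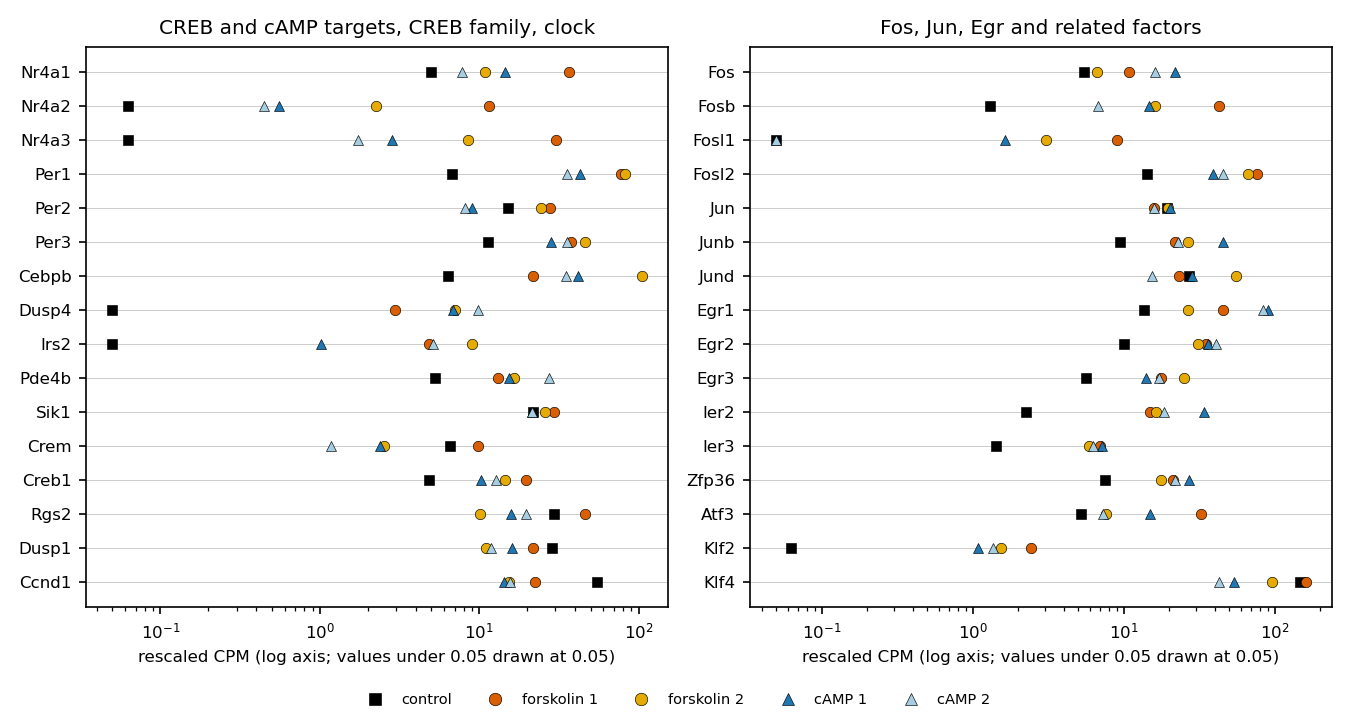
Rescaled CPM of CREB targets, CREB factors and clock genes (left) and of Fos, Jun, Egr and related factors (right) in each library, on a log axis with values under 0.05 drawn at 0.05. The Per1 forskolin points lie at 77.0 and 82.5, against 6.79 in the control; the Nr4a genes are higher in forskolin 1 than in forskolin 2, and the forskolin points of Jun lie beside the control.

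Clock genes as a list were called about as often as all genes. Of 19 genes 18 were tested, 3 rose (Per1 among them) and 1 fell, with a median of 0.17, and of the 16 shared members 2 rose and 1 fell. Per3 rose from 11.4 to 37.8 and 45.8 (adjusted p = 0.0087), and Nfil3, a repressor of clock output, from 0.623 to 8.48 and 6.62. Hlf, a clock output factor, fell from 38.9 to 15.9 and 14.7 (adjusted p = 0.032), with a positive difference of 0.68 as deposited. Per2 was at 15.2 against 27.7 and 24.4 and did not pass. The activators Clock and Arntl were not called. The hour of harvest is not given in the sources used here.

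In growth factor signalling the EGF receptor axis had 15 of 19 genes tested, and the 2 that rose, with none lower, were feedback genes (1 of the 12 shared members): Errfi1, which encodes an inhibitor of the receptor, from 5.73 to 43.7 and 24.4 (adjusted p = 0.00695), and Dusp5, an ERK phosphatase, from 1.18 to 8.24 and 6.62. In the BMP and TGF-beta pathway 24 of 30 genes were tested, 2 rose and 3 fell, while of the 19 shared members none rose and 2 fell. Both rises entered through forskolin. Tgfb1, a ligand that arrests keratinocytes, rose from 2.49 to 8.95 and 19.9. Its receptor Tgfbr1 rose from 0.10, which is under 3 reads in the control, to 7.08 and 6.59. The falls were Bmp2, a ligand, from 8.9 to 2.16 and 1.46, and the antagonists Grem1, from 5.6 to 0.831 and 0.841, and Bambi, from 5.6 to 1.27 and 0.33. As deposited, none of these 3 passed, at differences of -0.18, -0.4 and -0.5. Of 21 Wnt and Hedgehog targets 11 were tested, 2 rose and 2 fell, all 4 of them among the 8 shared members. Of all shared genes 6.58% rose and 6.54% fell. The rises were Myc and Rnf43, and the falls Ccnd1 and Gli3, neither of which was called as deposited. Myc, a growth factor-induced transcription factor, rose from 9.53 to 45.9 and 37.4 (adjusted p = 0.0051). Axin2, the usual Wnt reporter gene, was at 12.6 against 11.8 and 17.2, on either side of the control, and Gli1, the Hedgehog reporter, at 3.3 against 0.0443 and 2.37.

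Hair follicle stem cell markers, to which the study's aim points, showed few calls. Of 26 genes 24 were tested, 2 rose and 1 fell, with a median of -0.15 (1.5 as deposited, below the 1.72 of all genes). Of the 19 shared members none rose and 1 fell. Tcf7l1, a repressor that keeps bulge cells quiescent, fell from 11.2 to 0.802 and 2.83 (adjusted p = 0.0169; difference -0.55 as deposited, not called). Krt15, a keratin of the bulge and the basal layer, was at 804 against 566 and 389, and Cd34, a bulge surface marker, at 11.2 against 3.18 and 4.93. Neither passed (adjusted p = 0.258 and 0.0683), and both differences were positive as deposited (1.29 and 0.46). Lgr5, a marker of stem cells in the lower bulge and the germ, was not tested, at 2.1 in the control and 0.364 and 1.7 with forskolin. The calls higher were Fzd2, at 0.0623, or 1 read, against 1.68 and 3.59, and Tbx1, listed at 0 against 1.56 and 3.9. Both lost the call with quantile normalization or GC and length correction. Of 31 genes that mark a growing follicle, 9 were tested, 1 rose and 2 fell (none and 1 of the 7 shared members), and none of the 11 hair shaft genes was tested. Lef1, a marker of the hair matrix, was at 1.68 in the control and 0.00334 and 0.627 with forskolin, and Shh was not among the genes analysed here.

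Among cell cycle genes, 44 of 47 were tested, 11 rose and 2 fell, with a median of 0.59. Of the 34 shared members 4 rose and 2 fell. Mitosis genes accounted for 6 of the rises, from 17 tested and none lower, and for 2 among their 13 shared members. Mki67, which marks cycling cells, went from 17 to 68.2 and 75.2, 4.22-fold (log2 difference 2.01 ± 0.32, adjusted p = 0.00413). Cenpf, a kinetochore protein gene, and Ccnb2, which encodes cyclin B2, were listed at 0 in the control, against 10 and 8.96 for Cenpf and 7.86 and 5.65 for Ccnb2. Top2a, which untangles chromosomes, went from 13.2 to 37.2 and 30.3 (adjusted p = 0.026). Cdk6, a G1 kinase, went from 1.69 to 14 and 26.1, and Mcm4, of the replication helicase, from 3.8 to 18 and 15.7. Ccnd1, above, and Pola1, a DNA polymerase subunit gene, fell, the latter from 16.1 to 2.65 and 5.33. Ccnb1, Cdk1, Plk1 and Aurkb, also mitotic, were not called. The inhibitor Cdkn1a was at 62.3 against 49.7 and 48.5 and did not pass.

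The lists for the layers of the epidermis had few calls in the basal layer, and more falls in the suprabasal and cornified layers. All 21 basal genes were tested, 2 rose and none fell, with a median of 0.16 that turned to -0.16 after GC and length correction. Krt14 and Krt5, the basal keratin pair, were not called, Krt5 standing at 1646 in the control and 1627 and 1234 with forskolin. Itgb1, the integrin that anchors basal cells, rose from 15.8 to 43.5 and 33.3 (adjusted p = 0.0428) and was not called with quantile normalization. Tfap2a, a transcription factor of the epidermis, rose from 10.5 to 35 and 51.1.

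Of 31 suprabasal and desmosome genes 30 were tested, 9 fell and 1 rose (median -0.41, 1.5 as deposited). The 9 falls were all among the 28 shared members, of which none rose. Krt77, a suprabasal keratin, went from 1451 to 388 and 259, and Sbsn, a secreted protein of upper layers, from 1258 to 193 and 169.9 (log2 difference -2.79 ± 0.38, adjusted p = 0.00292). Krtdap, also secreted there, went from 962 to 229 and 123. Among desmosome genes Cdsn, which encodes corneodesmosin, went from 144 to 21.5 and 22.3, and Dsc1, an upper-layer desmosomal cadherin, from 82.1 to 16.1 and 17.2. As deposited none of these 5 passed, at differences from -0.13 for Krt77 to -0.73 for Sbsn. Krt10, the main keratin of the spinous layer, was at 2131 against 921 and 886 and did not pass (adjusted p = 0.0755), and its partner Krt1 was at 816 against 610.0 and 654. None of the 11 suprabasal transcription factors and Notch genes was called.

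Of 54 cornified layer genes 42 were tested, 20 fell and 5 rose (median -1.25), and as deposited 10 fell and 16 rose (median 0.63, against 1.72 for all genes). Of the 25 shared members 9 fell and 1 rose. The 10 late cornified envelope genes tested of 20 all entered through the control, where 88.9% of all such genes were called lower, and their fall is a description of the members that passed this filter. Flg2, which encodes filaggrin-2, a matrix protein of granular cells, went from 14.9 to 0.554 and 0.856 (adjusted p = 0.00256), and Ivl, which encodes involucrin, from 82.7 to 24.4 and 19.7 (difference 0.14 as deposited). Proteases and inhibitors of shedding fell too: Klk5 from 48.7 to 6.3 and 3.79, and Spink5 from 149 to 29 and 31.9, neither of them called as deposited. Of the 5 rises 4 entered through forskolin, where 45.6% of all such genes were called higher. Aloxe3 was the shared member that rose. Tgm1, which crosslinks the envelope, rose from 1.25 to 8.6 and 6.7 (adjusted p = 0.014), and Aloxe3, a lipoxygenase of barrier lipids, from 4.33 to 20.5 and 19.2 (adjusted p = 0.0102). The other rises were Klk13, Serpinb12 and Sprr2a1. After GC and length correction 23 fell and 6 rose.

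Genes of stressed or wounded keratinocytes rose in 6 of 16 tested, with none lower, and in 3 of the 12 shared members. The other 10 of the list's 26 genes were not tested. S100a8, an alarmin, was listed at 0 in the control and at 10.5 and 12.6 with forskolin. Stfa3, a cysteine protease inhibitor with close paralogs, went from 5.6 to 42.2 and 52.2 (adjusted p = 0.00324), and Krt79, a keratin of the follicle's upper duct that is also on the sebaceous list, from 176 to 487 and 806. Krt17, induced in wounds, was at 205 against 171 and 216 and was not called. Nor were the list's other wound keratins, Krt6a, Krt6b and Krt16, or S100a9, the partner gene of S100a8. With quantile normalization 5 genes of the list rose and 1 fell.

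Of the 37 lists, that of sebaceous gland genes held the most rises. All 38 were tested, 17 rose and 1 fell, with a median of 1.26 (2.79 as deposited). Of the 32 shared members 13 rose and 1 fell. Their summed level was 1547 rescaled CPM in the control, 2850 in forskolin 1 and 4637 in forskolin 2. Pparg, the nuclear receptor that directs sebocyte and fat cell differentiation, was listed at 0 in the control and at 14.6 and 15 with forskolin (log2 difference 3.98 ± 0.37, adjusted p = 0.00229). Fabp5, a fatty acid carrier, went from 16.8 to 121 and 120.0, 7.18-fold, with the forskolin libraries almost equal. Lpl, which frees fatty acids from lipoproteins, went from 6.66 to 30.3 and 54.6. Among the lipid enzymes Far2, which makes wax alcohols, went from 64.4 to 179 and 244 (adjusted p = 0.0194), Elovl3, a fatty acid elongase, from 20.7 to 49.1 and 89.4, and Fasn, the fatty acid synthase, from 44.4 to 108 and 282. In Lpl, Far2, Elovl3 and Fasn forskolin 2 was the higher library. Mc5r, the melanocortin receptor of sebocytes that signals through cAMP, went from 0.125, which is under 3 reads in the control, to 2.0 and 5.59. It was not called with quantile normalization. Scd3, a desaturase, fell from 53.7 to 3.81 and 14 (not called as deposited), while Scd1, the most abundant gene of the list, was at 342 against 669.9 and 1106 and did not pass (adjusted p = 0.113). Scd3 and Scd1 are near-identical neighbours between which reads could be split. The wax synthase genes Awat1 and Awat2 were not called, at 15.8 and 9.96 in the control.

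**Figure D4:**
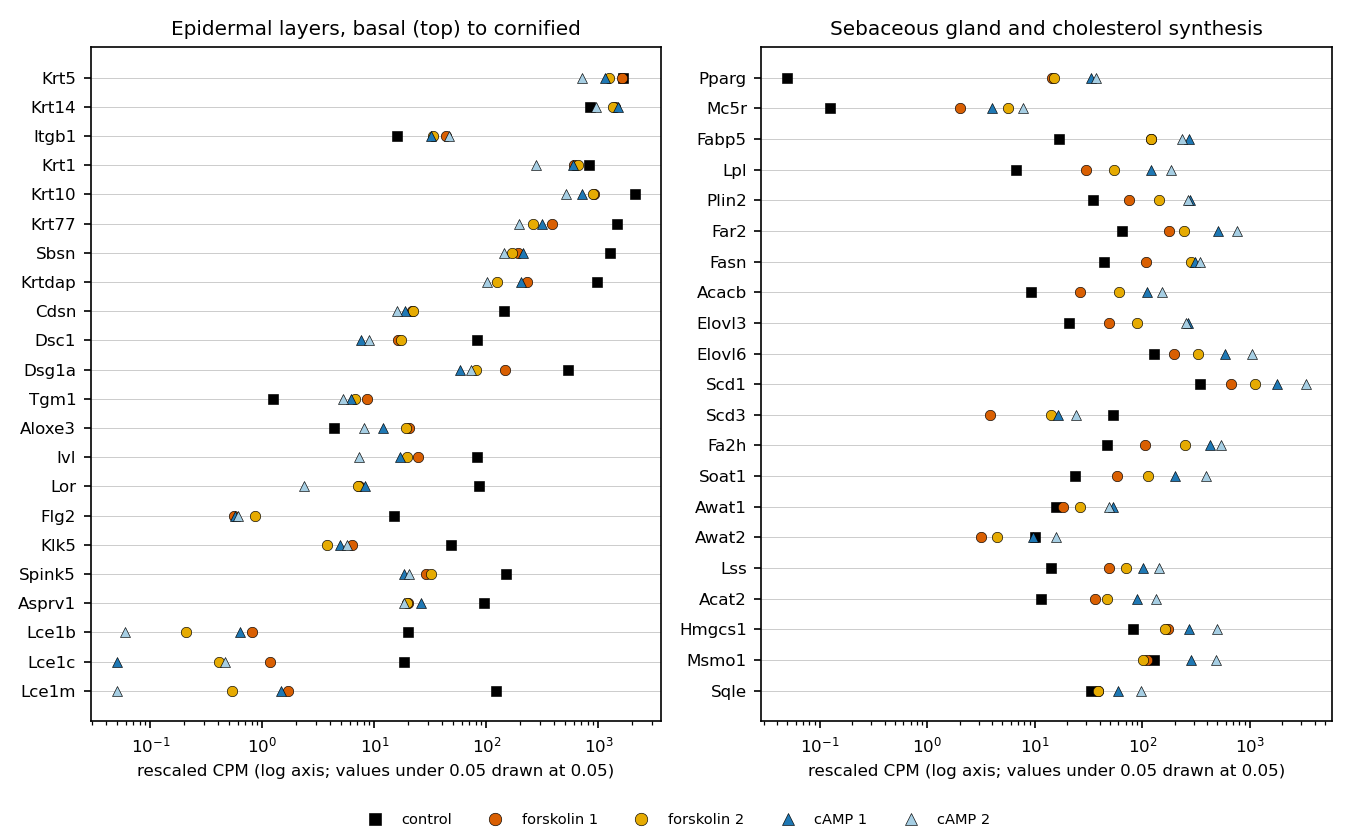
Rescaled CPM in each library for genes ordered from the basal to the cornified layer (left) and for sebaceous gland and cholesterol genes (right), on a log axis with values under 0.05 drawn at 0.05. On the left the control squares lie beside the forskolin circles for Krt5 and far to their right from Krt77 to Dsg1a and again for the Lce1 genes; on the right the squares lie to the left of the circles for most genes, Scd3, Awat2 and Msmo1 excepted.

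In neighbouring lipid and energy pathways fewer genes moved. Of 27 cholesterol synthesis genes 26 were tested, 6 rose and none fell, with a median of 0.32, and 5 of the 25 shared members rose. Lss, which closes the sterol ring, rose from 14.1 to 49.1 and 70.1 (adjusted p = 0.00775). Msmo1, a later demethylation step, was at 129.6 against 109 and 101 and was not called. Of 31 glycolysis and lactate genes 5 rose and 1 fell (2 and 1 of the 26 shared members). Besides Pcx these were Pfkfb2, a regulator of glycolytic flux, from 0.996 to 8.83 and 10.7, Slc16a1, a lactate transporter, from 4.61 to 18.9 and 22.8, Hk2 and Pdk4. Pdk1, which restrains pyruvate oxidation, fell from 39.2 to 15.5 and 17.5 (difference 0.77 as deposited). Ldha, the lactate dehydrogenase subunit linked to follicle stem cell activation, was at 120.0 against 107 and 93.9 (log2 difference -0.26, adjusted p = 0.602), and Mpc1, of the mitochondrial pyruvate carrier, at 16.2 against 19.9 and 14.1. Neither differed beyond the spread. All 47 nuclear-encoded oxidative phosphorylation genes were tested and 2 rose, Ndufa1 and Sdha (1 of the 45 shared members), with a median of 0.10. After GC and length correction 11 of the 47 rose and none fell, with a median of 0.25.

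**Figure D5:**
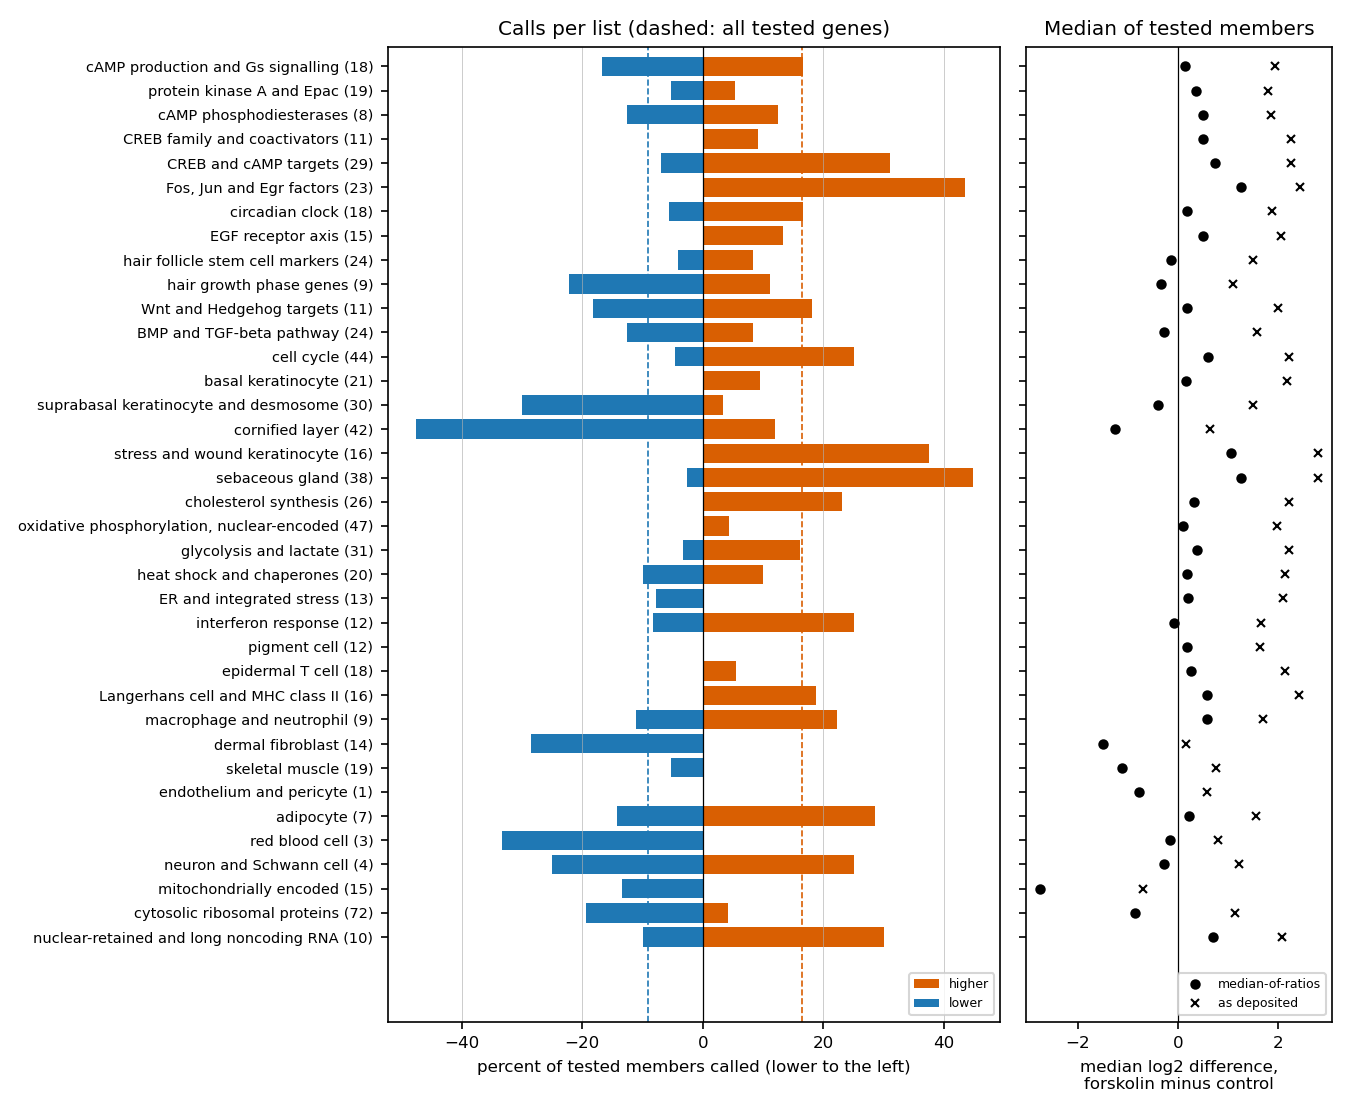
For each of 37 gene lists (tested members in brackets), the percent of tested members called higher (right bars) and lower (left bars), with dashed lines at the 16.5% and 9.02% of all tested genes, and the median log2 difference with median-of-ratios scaling and as deposited. Bars for sebaceous gland genes and for Fos, Jun and Egr factors reach farthest to the right and those for cornified layer genes farthest to the left; lists differ in size and in how many members entered through 1 group.

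Among markers of other cell types, those of dermal fibroblasts fell more often than the 9.02% of all tested genes. The muscle, endothelial, adipocyte, red cell and neuron lists had few calls or few tested members. The part of all these markers in the results above was not tested. Dermal fibroblast markers had 14 of 18 tested, none higher and 4 lower, with a median of -1.49 (0.16 as deposited, where 4 were higher and 1 lower). Their summed level was 1218 rescaled CPM in the control and 531 and 715 with forskolin, and Dcn, Sparc, Fn1 and Gsn were the falls, all among the 12 shared members. Vim, on the same list, went the other way, at 115 against 222 and 243, and just missed the threshold (limma adjusted p = 0.0533). Thy1, also on it, was at 75.5 against 75.7 and 79.9 and was not called. Of the 4 untested markers Pdgfra and Mfap5 were listed at 0 in the control, while Col5a1 was at 2.87 against 0.51 and 1.88 and Lum at 1.14 against 0.16 and 0.646. The collagens were uneven between the forskolin libraries, Col1a1 standing at 124 in the control, 1.47 in forskolin 1 and 72.8 in forskolin 2 (adjusted p = 0.157). Skeletal muscle markers, with 19 of 20 tested, had 1 call lower, Myh4, from 83.3 to 31.2 and 23, which was not called with any of the 4 other scalings, and the list summed to 357 in the control and 160 and 181 with forskolin. Of 13 endothelial and pericyte markers 1 was tested, Pecam1, at 3.38 against 0.839 and 2.61, not called. Of the 12 others 9, Cdh5 and Kdr among them, were listed at 0 in the control. The remaining 3 were higher there: Vwf at 2.99 against 0.621 and 0.711, Flt1 at 2.62 against 0.233 and 0.399, and Rgs5 at 0.623 against 0.131 and 0.256. The list summed to 9.61 in the control and 3.24 and 6.2 with forskolin. Adipocyte markers had 7 of 11 tested, 2 higher and 1 lower, red cell markers 3 of 8 tested and 1 lower, and neuron and Schwann cell markers 4 of 11 tested, 1 higher and 1 lower. The red cell fall entered through the control, and 1 rise each of the adipocyte and neuron lists through forskolin.

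Immune markers were present in every library. Epidermal T cell markers had 18 of 19 tested and 1 higher, Il2rb, a cytokine receptor chain, from 22.2 to 57.2 and 44.3, which was not called with quantile normalization, and the list summed to 667 in the control and 972 and 655 with forskolin. Trdc, the delta chain constant region, was at 55.6 against 139 and 66. All 16 Langerhans cell and MHC class II genes were tested and 3 rose (2 of the 14 shared members), with sums of 410 in the control and 759 and 506 with forskolin. Csf1r, a receptor that Langerhans cells need, went from 5.11 to 38.4 and 22.8 (adjusted p = 0.0105), while Cd207, their defining lectin, was at 6.6 against 22 and 10.3 and was not called. Macrophage and neutrophil markers had 9 of 16 tested, 2 higher and 1 lower (none and 1 of the 4 shared members), at sums of 32.6, 47.1 and 44.8. Of the pigment cell genes 12 of 16 were tested and none was called. Mitf, the pigment cell regulator that cAMP induces in melanocytes, was at 3.49 against 5.32 and 8.52 (log2 difference 0.79, adjusted p = 0.248). Pmel, a melanosome protein gene, was at 12.3 against 8.27 and 42.3, so the forskolin libraries lay on either side of the control.

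Forskolin was also compared with the cAMP libraries, a contrast between treated libraries only. The control still entered the size factors and the choice of genes. A gene under 1 CPM in the control and in a forskolin library was not tested, whatever its level with cAMP. limma called no gene (0% of 13275), with 1430 at an unadjusted p under 0.05, and the doses and agents differ. This count depended on the filter and the variance model: it was 116 with a minimum of 10 CPM, 61 with 1 CPM in at least 2 of 5 libraries and 17 with robust empirical Bayes. The values of the leading genes are given side by side. Per1 was at 77 and 82.5 with forskolin and 42.8 and 35.2 with cAMP (log2 difference 1.02 ± 0.27, adjusted p = 0.262). Nr4a3 was at 30.4 and 8.45 against 2.82 and 1.73 (log2 difference 2.42 ± 0.55, adjusted p = 0.227), with no overlap between the pairs. Egr1 was at 45.5 and 26.7 against 89.7 and 83.2, the cAMP pair being the higher. Elovl3 was at 49.1 and 89.4 against 264 and 255 (log2 difference -1.95 ± 0.33, adjusted p = 0.179), and Pparg at 14.6 and 15 against 33.6 and 36.7. Sebaceous list sums were 2850 and 4637 with forskolin and 7526 and 10260 with cAMP. For Lor the pairs overlapped, at 7.35 and 7.15 with forskolin and 8.25 and 2.33 with cAMP. A p that misses the threshold with 2 libraries a group does not show that the agents acted alike.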

How the data were processed

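RNA-seq of total mouse epidermis was deposited by the authors as 1 table of CPM values, which scale reads to library size, for 59869 transcripts in 5 libraries. The labels' protocols name an Illumina kit that keeps strand. The submitters' processing notes list STAR, Partek and bcl2fastq 2.17, and the genome build and annotation are not given in the sources used here. Coordinates matched GRCm38, as GENCODE M21 held 98.3% of the transcripts, with identical ends for 90.8% of these. Whole reads could not be recovered, since 59.6% to 75.7% of low gene sums lay within 0.1 of a whole read, so no count model was run. The 3 rows with no gene identifier, at most 0.0679% of a library, were left out.

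Rows were summed per gene, and each library was divided by its size factor, a median of ratios over the 11935 genes that exceeded 0.05 CPM in all 5. limma 3.58.1 in R 4.3.3, with an intensity trend, was fitted to log2(rescaled CPM + 1) for all 5 libraries in 3 groups, 2-sided, with Benjamini-Hochberg adjustment over 13275 genes at 0.05. Folds of low genes are understated on this scale. There were 2 residual and 6.7 prior degrees of freedom, and the p-values measure only how far these libraries vary, which may be technical variation. On simulated data, with 200 of 13275 genes changed, 2-fold changes were recovered at 10%, those of 4-fold at 84.6% and those of 8-fold at 99.5%, with 14.8 false calls on average. The changed genes were drawn from those with a mean above 3 on the log2 scale, and all libraries shared 1 mean per gene. The simulation left out the control's low nuclear share, its listed 0 values and the entry rule. Its false calls therefore say nothing about errors from these sources. GC content and length were those of each gene's longest listed transcript and came from GENCODE M21 for 99.3% of tested genes.

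The comparison, its rule and the 37 gene lists (870 genes, 713 tested) were chosen with earlier results of these data known. Ranked genes were called, at or above the median level, with both forskolin libraries on one side of the control: the 12 largest rises at or above 3 control reads, 6 rises below them and the 12 largest falls. No fall qualified for the 4 places kept for genes under the floor in a forskolin library. From each list up to 4 calls a direction by p and the 2 most abundant uncalled members were eligible, with promoters of up to 5 CREB targets called higher, and Creb1, Crem, Per1, Nr4a1, Areg, Mitf, Ldha, Mpc1, Mki67, Krt15, Lgr5, Cd34, Axin2 and Gli1 fixed by name. Other genes named, and the choice among those eligible, were picked after their values were seen. Alternatives covered scaling, pseudocount, filter, empirical Bayes, libraries left out, a replicate block and, added later, GC and length. The fit with cAMP checked the number pairing: same-numbered forskolin and cAMP libraries had correlated deviations of -0.078.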

Additional observations from a re-analysis of the deposited data

How the results depend on the processing

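The number of genes called in forskolin against control (3387) was 9335 as deposited, 1960 with no filter and 1444 with a minimum of 10 CPM, and ranged from 0 to 3677 over the fits that each left out 1 treated library. The 2189 higher calls became 9045 as deposited, 1165 with quantile normalization, 762 with no filter, 1438 when 5 was the pseudocount and 1101 with the 10 CPM minimum, and ranged from 0 to 2392 when a library was left out. The 1198 lower calls became 290 as deposited and 343 with the 10 CPM minimum, and ranged from 0 to 1289. The 0 calls came from leaving out forskolin 1 or forskolin 2, where the lone forskolin library was assumed to vary like the cAMP pair. Scaling to nuclear genes gave 3479 calls, TMM-like scaling 3348, robust empirical Bayes 3983 and forskolin with control alone 3686. The control was left out of no fit of this comparison, as it is the only library of its group.

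The 0 calls between forskolin and cAMP became 6 as deposited, 1 with a pseudocount of 0.1, 116 with the 10 CPM minimum, 61 with 1 CPM in at least 2 of 5 libraries, 17 with robust empirical Bayes and 8 with GC and length correction, and stayed at 0 when any 1 of the 4 treated libraries was left out. With the replicate number as a block, 252 genes were called. Same-numbered libraries of these groups shared a number only (correlation of deviations -0.078). No paired analysis was possible because the control shares fewer than 2 replicate numbers with forskolin.

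Of the 108 named genes called in forskolin against control, 47 lost the call with no filter, 13 with quantile normalization, 13 with a pseudocount of 5, 6 with GC and length correction and 2 with TMM-like scaling. With quantile normalization these were Egr1, Fzd2, Gnal, Il2rb, Irf1, Itgb1, Mc5r, Myh4, Nfil3, Nr4a2, Prkar2b, Ptger4 and Tbx1. With a pseudocount of 5, Dusp4 and Pde1b took the places of Nfil3 and Ptger4, and with GC and length correction they were Egr1, Fzd2, Il2rb, Pola1, Ppargc1a and Tbx1. As deposited, 21 lost the call and 6 turned positive: Ccnd1 (0.48), Hlf (0.68), Ivl (0.14), Myh4 (0.42), Pdk1 (0.77) and Rps24 (0.26). Uncalled genes whose log2 difference turned positive as deposited were Awat2 (0.53), Cd34 (0.46), Cdkn1a (1.68), Crem (1.35), Gli1 (0.01), Jun (1.78), Krt1 (1.69), Krt10 (0.83), Krt15 (1.29), Krt17 (1.95), Krt5 (1.85), Ldha (1.78), Msmo1 (1.74), Pecam1 (0.57) and Prkacb (1.77), where the median of all genes was 1.72. With quantile normalization the log2 difference of Krt1 was 0.41, of Krt15 0.13, of Krt17 0.44, of Krt5 0.41 and of Mpc1 -0.03. With GC and length correction that of Axin2 was -0.23, of Crem 0.17 and of Gnas -0.03. Over the fits that left out 1 treated library, Axin2 ranged from -0.09 to 0.42, Crem from -1.1 to 0.52, Gnas from -0.16 to 1.48, Jun from -0.27 to 0.02, Krt17 from -0.27 to 0.08, Mpc1 from -0.19 to 0.29, Pmel from -0.52 to 1.7 and Prkacb from -0.61 to 0.1, and none of these 8 genes was called. The cause of these changes was not tested. Genes listed at 0 in the control, 1198 of those tested, set the limit of depth here: their log2 differences depend on the pseudocount, and no fold is given for them.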

Other observations

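Several further gene groups were measured in the same comparison. All 20 heat shock and chaperone genes were tested, 2 rose and 2 fell, with a median of 0.17. The falls were Hspb8 and Dnajb1, neither of them called as deposited. Hsf1, the heat shock transcription factor gene, went from 4.86 rescaled CPM in the control to 17 and 16.4 with forskolin (limma adjusted p = 0.0228), and Hspd1, a mitochondrial chaperone gene, from 18.4 to 47.7 and 43.8. Of 13 tested genes of the endoplasmic reticulum and integrated stress responses, Trib3, a pseudokinase gene induced by ATF4, was the 1 called, and entered through the control, from 3.42 down to 0.70 and 0.651. Interferon response genes had 12 of 23 tested, 3 higher and 1 lower. Of the 8 at 1 CPM or more in all 3 libraries Irf9 alone was called, and it rose. Irf1, a transcription factor of the response, entered through forskolin and went from 2.43 to 8.53 and 7.57. Irf1 was not called with quantile normalization.

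RNA classes tied to the makeup of a library moved too. The 15 mitochondrially encoded genes had a median log2 difference of -2.76, and 2 were called lower. The median was -0.69 as deposited and -0.21 with quantile normalization. Of 72 tested cytosolic ribosomal protein genes 14 fell and 3 rose, and 13 and 1 of the 63 at 1 CPM or more in all 3 libraries (median -0.86, and 1.13 as deposited with 23 higher and none lower). Rps24 went from 291 to 90.9 and 76.3, and these genes have many processed pseudogenes with which reads could be shared. Of 10 tested long noncoding RNA genes 3 rose and 1 fell, and of the 5 at 1 CPM or more in all 3 libraries 1 rose. Neat1, a scaffold of nuclear paraspeckles, went from 186 to 525 and 535 (limma adjusted p = 0.0242). Malat1, another nuclear transcript, was at 93.9 in the control, 164 in forskolin 1 and 652 in forskolin 2, and did not pass (adjusted p = 0.0821).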
